A study of Mus musculus with 10 samples.

Results

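The clustered protocadherin genes lie in 3 adjacent groups, alpha (*Pcdha*), beta (*Pcdhb*) and gamma (*Pcdhg*), on mouse chromosome 18. H3K4me3 was followed along these groups in oocytes that lacked SETD1B, a histone methyltransferase that places methyl groups on lysine 4 of histone H3. The members were all 5 kb windows of chromosome 18 to which the deposited table gives a gene name beginning with *Pcdha*, *Pcdhb* or *Pcdhg*. There were 119 of them among 544879 windows, with 52 windows in the alpha cluster, 32 in the beta cluster and 35 in the gamma cluster. The rule used position and name only, and no measured value, though it was chosen with earlier results of these data known. In the cKO, the gamma cluster carried more H3K4me3 than in WT in its mean, with 3 of 35 windows called higher (0.563% of all windows) and all cKO libraries above all WT libraries in 19 of 35 (9.88% of all windows), each upstream of its C-type exons, the alpha cluster did not differ as a whole beyond the spread between libraries, and the libraries of the genotypes overlapped over the beta cluster, which held 1 window called lower.

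H3K4me3 was profiled by ULI-nChIP-seq, a native chromatin immunoprecipitation for few cells, in germinal vesicle (GV) oocytes from 21-day-old C57BL6 females, in pools of about 200 oocytes. All samples are labelled *Setd1b* floxed/floxed. The *Setd1b* cKO (N = 3) also carried *Gdf9*-Cre and the WT (N = 3) are labelled *Gdf9*-Cre negative, although the methods of the study also count heterozygous Cre carriers, with 1 wild-type *Setd1b* allele, among its WT females. *Gdf9*-Cre acts in growing oocytes from early folliculogenesis on, so H3K4me3 that was set earlier was laid down with SETD1B present. Nothing in the labels says whether the pools shared mice, and the p-values then measure only the spread between these pools.

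Clustered protocadherins are cell surface adhesion proteins that are best known for giving each neuron its own surface identity. In the alpha and gamma clusters, each variable first exon has its own promoter and is spliced to a set of constant exons shared by the whole cluster, whereas each beta gene is a single exon. The C-type exons at the downstream end of the alpha and gamma clusters are regulated apart from the others in neurons. H3K4me3 is a mark of promoters in most cells, and in growing oocytes it also spreads over broad regions away from active promoters.

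The alpha windows ran without a gap from 36930001 to 37190000 on chromosome 18 of GRCm38, the build of the files. The beta windows lay between 37260001 and 37525000, and 21 windows inside this span had no gene name and were not members. The gamma windows ran without a gap from 37670001 to 37845000. Where several genes shared a window the table gives a single name, so that all 52 alpha windows are listed as *Pcdhac1* and all 35 gamma windows as *Pcdhga11*, while the beta windows carry 22 names. Single isoforms were therefore placed from the RefSeq annotation of GRCm38, which holds 14 alpha, 22 beta and 22 gamma genes, all on the forward strand. The starts of 14 alpha genes fell in 14 windows, those of 22 beta genes in 21 windows, and those of 20 gamma genes in 18 windows. *Pcdhga1* and *Pcdhga2*, the first genes of the gamma cluster, start in windows with no gene name, which are not members and are given separately.

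H3K4me3 is given as normalized RPKM, a read density that the authors shifted and scaled in each library to bring weakly and strongly enriched libraries to a common range. A window without any read has a value of 0.2996 or more in WT replicates 1 and 4 and in cKO replicate 1, of −0.0359 in WT replicate 2, and of −1.02 and −0.70 in cKO replicates 3 and 4. The libraries held 10856015 to 32775874 reads. They were unequally enriched, by the ratio of reads at percentile 99 of the windows to those at percentile 40. This ratio was 13.5, 3.47 and 3.88 in cKO replicates 1, 3 and 4 and 14.25, 5.38 and 6.97 in WT replicates 1, 2 and 4. The 2 weakest libraries were thus both cKO, and the part of this in the differences was not tested. Differences are cKO mean minus WT mean in normalized RPKM, tested with limma over all windows, and a window was called when the Benjamini-Hochberg adjusted p was under 0.05. Calls of higher H3K4me3 in the cKO (gains) made up 0.563% of all windows and calls of lower H3K4me3 (losses) 0.454%, together 1.02%, and among the 119 members there were 3 gains and 1 loss. The study reports significant gains or losses over a larger share of the genome than this fit called. With an intensity trend added to the fit, gains made up 1.57% and losses 2.01% of all windows. The member gains were then 2 other windows. In the window of the *Setd1b* start itself, H3K4me3 was lower in the cKO by 2.74 (limma adjusted p = 0.0332, 0.446 in edgeR and 0.032 to 0.128 when a library was left out), which is a measure of the mark and not of the deletion. Of 10 oocyte marker genes, every start window was among the top 10% of WT windows.

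The 3 clusters differed in how much H3K4me3 they carried in WT oocytes. The mean over the beta windows was 3.99 ± 0.12 normalized RPKM (SD, n = 3), over the gamma windows 2.37 ± 0.12 and over the alpha windows 1.47 ± 0.14, against 2.02 ± 0.11 over all windows. The median beta window stood at percentile 86.2 of all windows, the median gamma window at 67.9 and the median alpha window at 41.2. Among the beta windows 12 of 32 were in the top 10% of all windows, among the gamma windows 3 of 35, and among the alpha windows 0 of 52.

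**Figure D1:**
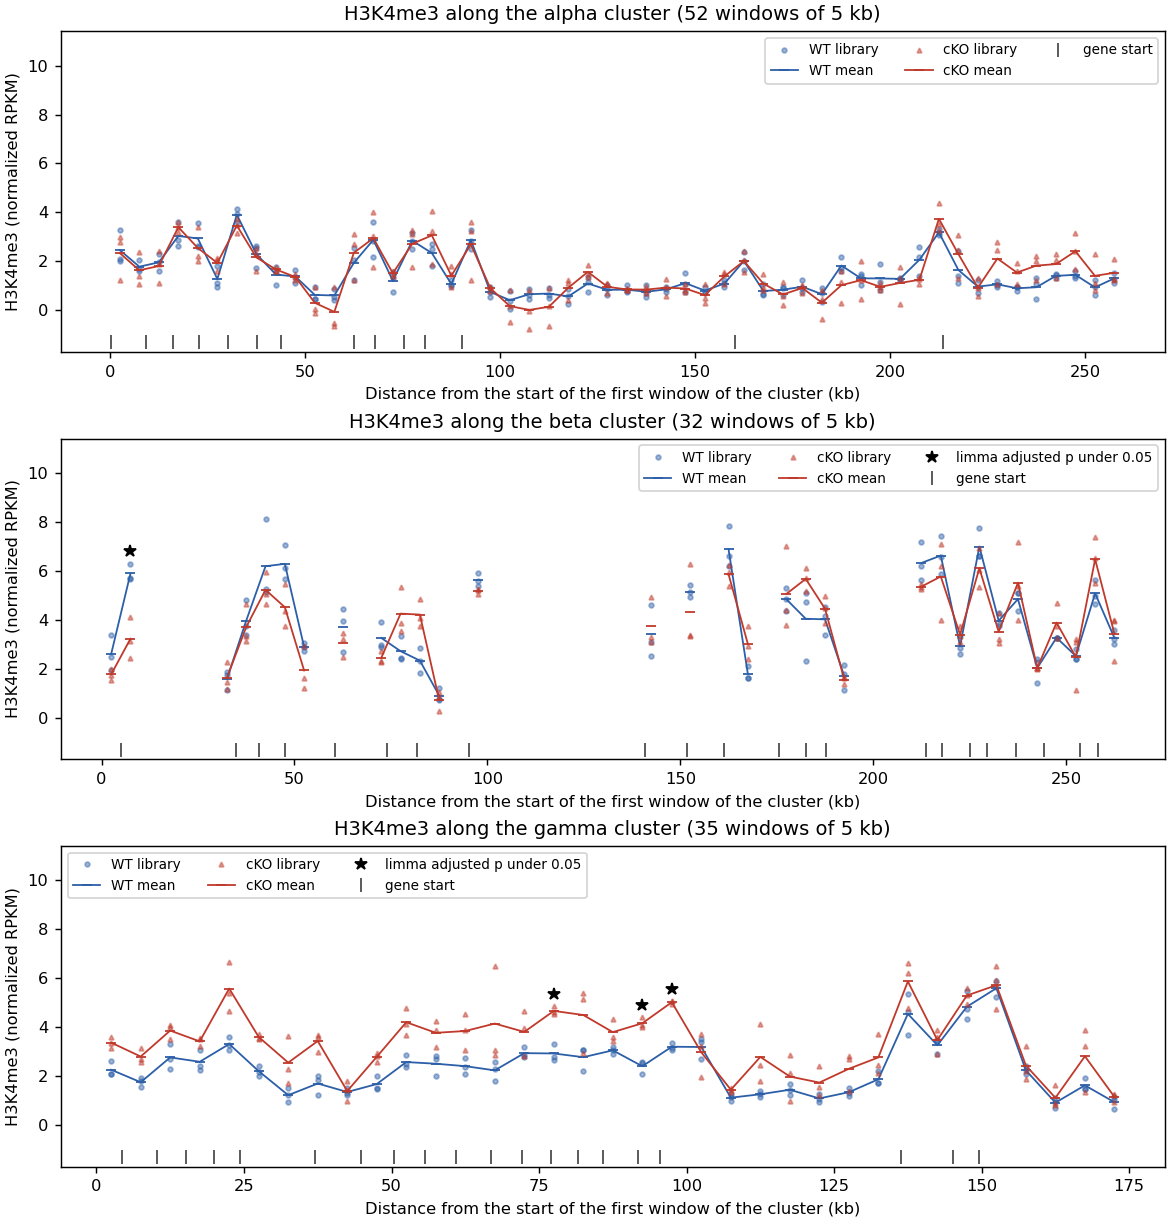
H3K4me3 in normalized RPKM (vertical axis) in each member window of the alpha, beta and gamma clusters, by distance in kb from the first window of each cluster; circles are the 3 WT libraries, triangles the 3 cKO libraries, lines their means, ticks the RefSeq gene starts and stars the called windows. Gaps in the beta panel are windows without a gene name. The cKO line runs above the WT line in 34 of 35 gamma windows and crosses it repeatedly in the other panels.

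Values of single libraries are given from here on in the order cKO replicates 1, 3, 4 and WT replicates 1, 2, 4. In the gamma cluster the cKO libraries had means of 3.20, 3.43 and 3.53 normalized RPKM and the WT libraries means of 2.35, 2.27 and 2.51. Every cKO library was above every WT library, and the difference of 1.01 was several times the SD between libraries (0.165 in the cKO and 0.124 in WT). Replicate 1 of each genotype, which have nearly the same value at 0 reads (0.785 in the cKO and 0.810 in WT), differed by 0.856. Across the 119 members, cKO replicate 1 correlated with WT replicates 1, 2 and 4 at r of 0.907, 0.815 and 0.883. With cKO replicates 3 and 4 its r was 0.791 and 0.854. As RPM (the reads of a window divided by the library total and scaled), without the enrichment normalization, the gamma mean was 3.42, 2.83 and 3.02 in the cKO libraries and 2.24, 2.18 and 2.25 in the WT libraries, again without overlap.

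The difference was spread over many windows. The cKO mean was above the WT mean in 34 of 35 gamma windows, against 43.7% of all windows. All 3 cKO libraries were above all 3 WT libraries in 19 of 35 gamma windows, against 9.88% of all windows, and the reverse was seen in 0 gamma windows, against 9.95%. The longest unbroken run of such separated windows covered 8 windows, or 40 kb, from 37670001 to 37710000, from *Pcdhga3* to *Pcdhga6*. The median difference over the gamma windows was 1.10, and over all windows of the table −0.10. Leaving out any one library, or using quantile normalization, division by the median or RPM, left the cKO mean higher in 32 to 35 of 35 gamma windows. Neighbouring windows share domains of the mark and are not independent, so these counts describe the cluster and are no test of it.

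**Figure D2:**
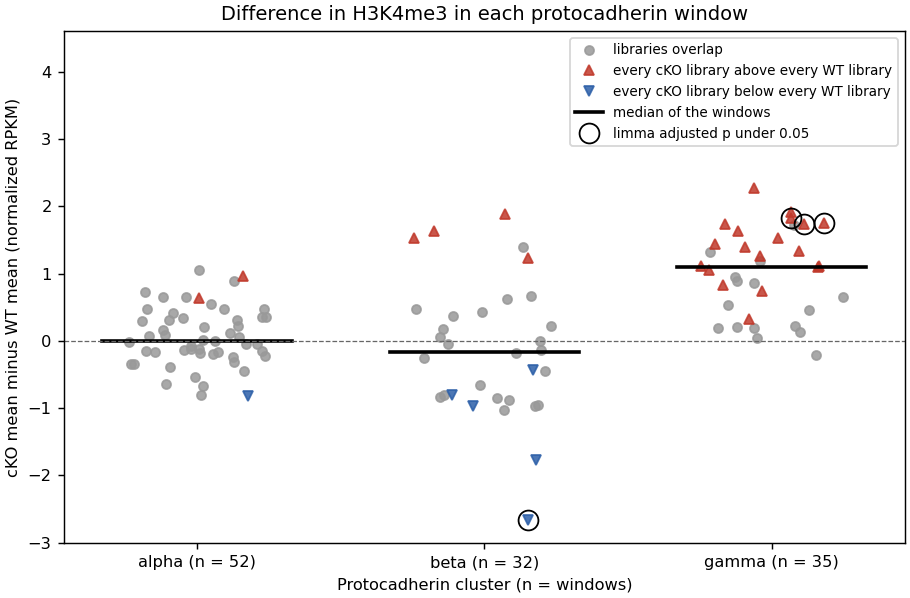
Difference in H3K4me3, cKO mean minus WT mean in normalized RPKM (vertical axis), for each window of the 3 clusters; triangles mark windows whose cKO and WT libraries do not overlap, circles the called windows and bars the median of the windows. The gamma windows centre on 1.10, with 1 window below 0, and the alpha and beta windows scatter around 0.

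By the test over all windows, 3 of 35 gamma windows were called, all as gains, and 20 of 35 had a higher mean in the cKO with an unadjusted limma p under 0.05, against 6.82% of all windows. The 3 windows hold the first exons of *Pcdhga10*, *Pcdhgb8* and *Pcdhga12*, at the downstream end of the run of A-type and B-type exons. RefSeq lists *Pcdhgb8* as a transcribed pseudogene.

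The *Pcdhga12* window, from 37765001 to 37770000, had 5.06, 5.06 and 4.94 normalized RPKM in the cKO libraries and 3.16, 3.08 and 3.36 in the WT libraries. The genotypes did not overlap, and both were tight around their means. The difference was 1.82 (SE 0.321, limma adjusted p = 0.0367), resting on 77, 46 and 117 reads in the cKO libraries and 45, 32 and 102 in the WT libraries.

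The *Pcdhgb8* window, from 37760001 to 37765000, had 4.00, 4.40 and 4.07 normalized RPKM in the cKO libraries and 2.59, 2.10 and 2.52 in the WT libraries. Its difference was 1.75 (SE 0.338, limma adjusted p = 0.0459). The *Pcdhga10* window, from 37745001 to 37750000, had 4.61, 4.53 and 4.85 in the cKO libraries and 3.32, 2.79 and 2.67 in the WT libraries, a difference of 1.74 (SE 0.345, limma adjusted p = 0.0493). In both windows the lowest cKO library was above the highest WT library.

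These 3 gains stood close to the threshold. With edgeR's quasi-likelihood test on the recovered reads, the adjusted p was 0.665 for *Pcdhga12*, 0.445 for *Pcdhgb8* and 0.642 for *Pcdhga10*. edgeR called 0 of 119 members, against gains in 1.07% and losses in 1.22% of the windows it tested. Without WT replicate 1, 2 or 4 or without cKO replicate 4, limma called 0 gamma windows and 0 gains among all 544879 windows, and without cKO replicate 3 none of these 3 (adjusted p 0.0635 to 0.0844).

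The window with the start of *Pcdhga1*, the first gamma gene, has no gene name in the table and lies just outside the members, from 37660001 to 37665000. It had 4.67, 4.27 and 4.36 normalized RPKM in the cKO libraries and 2.12, 1.03 and 2.94 in the WT libraries. Its difference of 2.40 was a called gain (SE 0.474, limma adjusted p = 0.0486), and was not called when any single library was left out (adjusted p 0.0517 to 0.144). It was also not called by edgeR (adjusted p = 0.124), and was called in 3 of 8 other settings in all (adjusted p 0.0017 to 0.445). The window of the *Pcdhga2* start, from 37665001 to 37670000, had a mean of 2.77 in the cKO and 1.98 in WT and was not called (difference 0.79, SE 0.418, limma adjusted p = 0.422).

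The largest difference among the gamma members was in the window from 37690001 to 37695000, which holds most of the first exon of *Pcdhgb2* and the start of *Pcdhga5*. It had 5.39, 4.66 and 6.68 normalized RPKM in the cKO libraries and 3.06, 3.27 and 3.60 in the WT libraries, and the difference of 2.27 did not pass the test (SE 0.496, limma adjusted p = 0.0641). The *Pcdhga9* window, from 37735001 to 37740000, had 3.06, 6.51 and 2.87 in the cKO libraries and 1.80, 2.59 and 2.31 in the WT libraries. Here cKO replicate 3 alone was far above the others, and the difference of 1.91 (SE 0.819) had an adjusted p of 0.309 in limma.

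The difference was not even along the gamma cluster. From the first member window to the *Pcdhga12* start, the cKO libraries averaged 3.61, 3.63 and 3.96 normalized RPKM and the WT libraries 2.36, 2.27 and 2.54, a difference of 1.34 over 20 windows. In 17 of these 20 windows, with a median of 117.5 CpG dinucleotides, all cKO libraries were above all WT libraries. This was so in 9.88% of all windows and in 19.9% of those with at least 100 CpGs. From the *Pcdhgc3* start to the end of the cluster, over 8 windows with the C-type and constant exons, the cKO libraries averaged 3.29, 3.54 and 3.61 and the WT libraries 2.97, 2.88 and 3.12, a difference of 0.489, and in 0 of 8 single windows were the libraries fully separated. As RPM these 8 windows averaged 3.54, 2.90 and 3.08 in the cKO libraries and 3.15, 2.76 and 2.88 in the WT libraries, which overlapped. Among the gamma windows with variable exon sequence, 16 of 22 had all cKO libraries above all WT libraries, and among those without it 3 of 13, against the same 9.88% and 19.9%. These groups also differed in CpG content, with medians of 131 and 36 CpGs, so exon and CpG content are not told apart here.

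The C-type gamma exons had the highest H3K4me3 of the cluster in WT. The window with the *Pcdhgc3* start, from 37805001 to 37810000, had 6.61, 4.79 and 6.20 normalized RPKM in the cKO libraries and 4.63, 3.66 and 5.34 in the WT libraries, which overlapped (difference 1.32, SE 0.557, limma adjusted p = 0.299). The window with the starts of *Pcdhgc4* and *Pcdhgc5*, from 37815001 to 37820000, had 5.33, 4.93 and 5.62 in the cKO libraries and 4.32, 4.73 and 5.46 in the WT libraries. Its difference was 0.46 with a 95% interval of −0.43 to 1.34 (limma adjusted p = 0.559). The next window, from 37820001 to 37825000, holds the rest of the *Pcdhgc5* exon and was the highest gamma window in WT. It had 4.72, 6.51 and 5.91 in the cKO libraries and 5.62, 5.90 and 5.25 in the WT libraries (difference 0.12, 95% interval −0.92 to 1.17, limma adjusted p = 0.912).

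The libraries of the genotypes overlapped in 16 of 35 gamma windows, among them the 3 C-type windows above and the 3 that follow. The *Pcdhga7* start window, from 37710001 to 37715000, had 1.78, 0.965 and 1.42 normalized RPKM in the cKO libraries and 1.23, 1.33 and 1.50 in the WT libraries and broke the run of separated windows (difference 0.04, 95% interval −0.74 to 0.82, limma adjusted p = 0.965). The window just after *Pcdhga12*, from 37770001 to 37775000, was the only gamma member with a lower mean in the cKO, with 3.23, 3.74 and 1.95 against 3.37, 2.69 and 3.51 in the WT libraries (difference −0.22, SE 0.485, limma adjusted p = 0.839). The last constant exon of the cluster begins in the window from 37835001 to 37840000, which had 1.34, 3.21 and 3.88 in the cKO libraries and 1.49, 1.91 and 1.47 in the WT libraries. There cKO replicate 1 was at the WT level and the other 2 cKO libraries were above it (difference 1.19, SE 0.579, limma adjusted p = 0.379). The exon runs from 37839903 to 37841873, so nearly all of it lies in the next window, whose values are not given here.

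**Figure D3:**
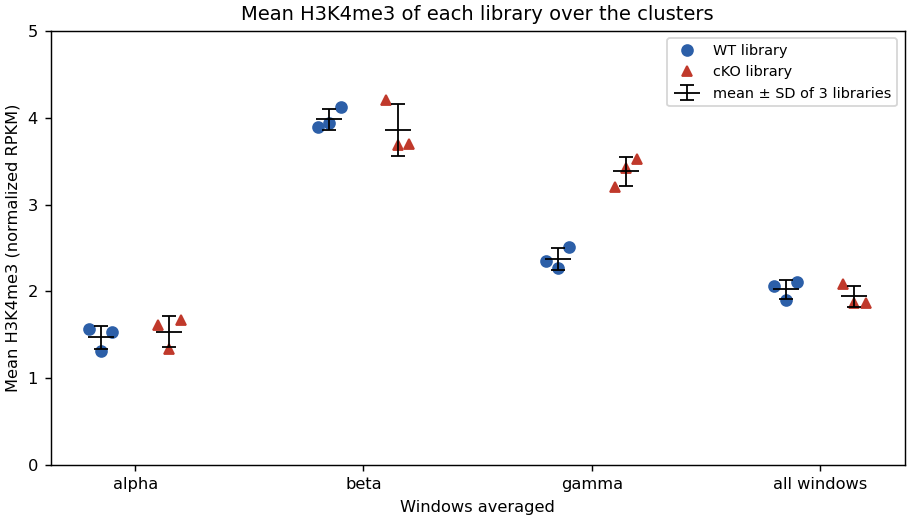
Mean H3K4me3 in normalized RPKM (vertical axis) of each library over the windows of the alpha, beta and gamma clusters and over all windows; circles are WT and triangles cKO libraries, and bars give the mean ± SD of 3 libraries. The genotypes separate in the gamma cluster (2.27 to 2.51 in WT and 3.20 to 3.53 in the cKO) and overlap in the alpha cluster, in the beta cluster and over all windows.

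The alpha cluster had a mean H3K4me3 of 1.61, 1.33 and 1.67 normalized RPKM in the cKO libraries and of 1.57, 1.31 and 1.53 in the WT libraries. The libraries overlapped and the difference of 0.067 was smaller than the SD between libraries (0.182 in the cKO and 0.135 in WT). The number of alpha windows called by limma was 0 of 52, 2 windows were higher in the cKO with an unadjusted p under 0.05 and 0 were lower, against 6.82% and 8.12% of all windows, and edgeR called 0. All cKO libraries were above all WT libraries in 2 windows (3.85% of the cluster) and below them in 1 window (1.92%), against 9.88% and 9.95% of all windows. In this cluster 26 of 52 windows had a higher mean in the cKO, against 43.7% of all windows. As RPM this was 40 of 52, against 54.6% of all windows, and without cKO replicate 3 it was 34 of 52, against 43.9%.

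H3K4me3 in the alpha cluster was highest at the variable exons. In WT, the 14 windows with a gene start had 1.47 to 3.91 normalized RPKM and the other 38 windows 0.42 to 2.07. The highest alpha window in WT held the first exon of *Pcdha5*, from 36960001 to 36965000, with 3.95, 4.15 and 3.63 in the WT libraries and 3.50, 3.74 and 3.16 in the cKO libraries (difference −0.44, 95% interval −1.21 to 0.33, limma adjusted p = 0.514). Next in WT came the window of the *Pcdhac2* start, from 37140001 to 37145000, a C-type exon and the highest alpha window in the cKO. It had 3.28, 4.40 and 3.54 in the cKO libraries and 3.06, 3.17 and 3.33 in the WT libraries (difference 0.55, 95% interval −0.30 to 1.40, limma adjusted p = 0.491). The *Pcdha3* window, from 36945001 to 36950000, had 3.39, 3.21 and 3.59 in the cKO libraries and 2.64, 2.88 and 3.60 in the WT libraries (difference 0.36, SE 0.370, limma adjusted p = 0.628).

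The first alpha gene and the other C-type exon stood lower. The *Pcdha1* window, from 36930001 to 36935000, had 2.78, 1.23 and 3.01 normalized RPKM in the cKO libraries and 2.01, 2.10 and 3.27 in the WT libraries, with overlap (difference −0.12, SE 0.536, limma adjusted p = 0.925). The *Pcdhac1* window, from 37090001 to 37095000, had 2.06, 2.42 and 1.57 in the cKO libraries and 2.01, 2.40 and 1.65 in the WT libraries, and the difference lay between −0.84 and 0.83 (95% interval, limma adjusted p = 0.996). Over the 14 alpha windows with a start, the median difference was −0.06.

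Near the 3′ end of the alpha cluster the cKO mean was mostly higher. After the *Pcdhac2* start the cKO mean exceeded the WT mean in 8 of 9 windows, against 43.7% of all windows, with a median difference of 0.642. All cKO libraries were above all WT libraries in 2 of 9, against 9.88%, and 0 were called. The largest alpha difference, 1.05 (SE 0.464, limma adjusted p = 0.323), was in the window from 37155001 to 37160000, which holds the first constant exons. It had 1.06, 2.81 and 2.48 normalized RPKM in the cKO libraries and 0.967, 1.03 and 1.20 in the WT libraries, so that cKO replicate 1 lay among the WT libraries and the other 2 cKO libraries above them. The window from 37175001 to 37180000 had 1.67, 2.42 and 3.16 in the cKO libraries and 1.33, 1.62 and 1.41 in the WT libraries (difference 0.96, SE 0.418, limma adjusted p = 0.316), and that from 37165001 to 37170000 had 1.23, 2.02 and 2.24 against 1.07, 0.451 and 1.32 (difference 0.88, SE 0.404, limma adjusted p = 0.343). The last constant exon begins in the window from 37180001 to 37185000, with 1.12, 0.833 and 2.29 in the cKO libraries and 0.967, 1.23 and 0.629 in the WT libraries (difference 0.47, limma adjusted p = 0.582). It runs from 37184946 to 37188897, so nearly all of it lies in the next window, whose values are not given here.

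The largest alpha differences in the other direction were also not called. Between *Pcdhac1* and *Pcdhac2*, the window from 37135001 to 37140000 had 1.28, 1.10 and 1.37 normalized RPKM in the cKO libraries and 2.17, 1.42 and 2.61 in the WT libraries, the single alpha window with all cKO libraries below WT (difference −0.82, SE 0.386, limma adjusted p = 0.363). The window from 37115001 to 37120000 had 1.17, 0.305 and 1.61 against 1.60, 1.72 and 2.19 (difference −0.80, SE 0.413, limma adjusted p = 0.410). The window from 36985001 to 36990000, between *Pcdha7* and *Pcdha8*, had 1 to 6 reads in each library and values near those of 0 reads (difference −0.67, SE 0.455, limma adjusted p = 0.491). It was among 5 alpha windows with a mean input under 1 RPM, against a mean of 1.88 over all windows. Input was sequenced without precipitation, and the part of low input in these values was not tested.

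In the beta cluster, mean H3K4me3 was 4.20, 3.68 and 3.69 normalized RPKM in the cKO libraries and 3.89, 3.94 and 4.12 in the WT libraries. The libraries overlapped, and the difference of −0.13 was below the SD of the cKO libraries (0.298) and close to that of the WT libraries (0.12). Over every window of the beta span, with the 21 windows that have no gene name, the difference was −0.24. These 21 had a median difference of −0.36, all cKO libraries were below all WT libraries in 4 of them and above in 0, against 9.95% and 9.88% of all windows, and 0 were called. Single windows went both ways, with 13 of 32 higher and the others lower in the mean of the cKO. All cKO libraries were above all WT libraries in 4 windows (12.5% of the cluster) and below them in 5 windows (15.6%), against 9.88% and 9.95% of all windows.

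The single called beta window, and the single loss among all 119 members, held nearly the whole exon of *Pcdhb1*, the first gene of the cluster, from 37265001 to 37270000. It had 3.11, 4.13 and 2.43 normalized RPKM in the cKO libraries and 5.68, 5.70 and 6.29 in the WT libraries. The genotypes were well apart, at percentile 97.5 of all windows in WT. The difference was −2.66 (SE 0.46, limma adjusted p = 0.035), resting on 42, 39 and 65 reads in the cKO libraries and 93, 59 and 200 in the WT libraries. Without WT replicate 1, 2 or 4 or cKO replicate 4 the adjusted p was 0.106, 0.119, 0.133 or 0.109, in fits that called 1, 0, 0 and 0 losses among all windows, and in edgeR it was 0.238. The window before it, from 37260001 to 37265000, in which *Pcdhb1* starts 3 bases from the end, had 1.56, 1.76 and 2.00 in the cKO libraries and 1.96, 3.37 and 2.49 in the WT libraries (difference −0.83, SE 0.415, limma adjusted p = 0.391).

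The upstream end of the beta cluster was mostly lower in the cKO. From *Pcdhb1* to the *Pcdhb6* start, 1 of 9 windows had a higher mean in the cKO, against 43.7% of all windows, with a median difference of −0.83, and in 3 of 9 all cKO libraries were below all WT libraries, against 9.95%. The end of this stretch was set where the direction turned, after the values were seen, so its counts are a description. The *Pcdhb4* window, from 37305001 to 37310000, had 5.44, 3.74 and 4.36 normalized RPKM in the cKO libraries and 5.68, 7.07 and 6.11 in the WT libraries. These did not overlap, and the difference of −1.77 did not pass the test (SE 0.513, limma adjusted p = 0.133).

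After the *Pcdhb6* start, 12 of 23 beta windows had a higher mean in the cKO, with a median difference of 0.17, and 0 were called. All cKO libraries were above all WT libraries in 4 of these and below them in 2 (9.88% and 9.95% of all windows). The window with most of the *Pcdhb6* exon, from 37335001 to 37340000, had 3.56, 3.87 and 5.33 normalized RPKM in the cKO libraries and 2.43, 2.40 and 3.33 in the WT libraries (difference 1.53, SE 0.503, limma adjusted p = 0.180). The *Pcdhb7* window next to it had 4.06, 3.74 and 4.85 against 2.85, 1.81 and 2.34, the largest beta difference in this direction (1.88, SE 0.421, limma adjusted p = 0.0682). In both windows the genotypes did not overlap, and neither was called. Further on, the *Pcdhb13* window, from 37440001 to 37445000, had 5.72, 5.19 and 6.10 in the cKO libraries and 4.73, 2.30 and 5.10 in the WT libraries, where WT replicate 2 was well below the other WT libraries (difference 1.63, SE 0.656, limma adjusted p = 0.276).

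The most strongly marked windows of all 119 members were beta windows. The window with the starts of *Pcdhb17* and *Pcdhb18*, from 37485001 to 37490000, had 6.62, 7.75 and 6.59 normalized RPKM in the WT libraries, at percentile 99.4 of all windows, and 6.94, 5.32 and 6.05 in the cKO libraries (difference −0.88, SE 0.493, limma adjusted p = 0.453). The *Pcdhb11* window, from 37420001 to 37425000, had 6.20, 7.84 and 6.59 in the WT libraries and 5.94, 6.25 and 5.38 in the cKO libraries (difference −1.02, SE 0.471, limma adjusted p = 0.347). The window with the *Pcdhb16* start, from 37475001 to 37480000, had 5.88, 6.58 and 7.40 in the WT libraries and 7.11, 4.00 and 6.20 in the cKO libraries (difference −0.85, SE 0.713, limma adjusted p = 0.541). In all 3 windows the libraries of the genotypes overlapped and the difference did not pass the test, and cKO replicate 3 was lowest at *Pcdhb16* and *Pcdhb17*.

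In the cKO the highest beta window was a different one. The window with the *Pcdhb22* start, the last gene of the cluster, from 37515001 to 37520000, had 7.38, 6.51 and 5.52 normalized RPKM in the cKO libraries and 5.62, 4.63 and 4.98 in the WT libraries. The lowest cKO library was just below the highest WT library, and the difference was 1.39 (SE 0.497, limma adjusted p = 0.216).

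Along each cluster, H3K4me3 was higher in windows with more CpG dinucleotides, counted in the GRCm38 sequence. Across windows, Pearson's r between the CpG count and the WT mean was 0.740 in the alpha cluster (n = 52), 0.702 in the beta cluster (n = 32) and 0.660 in the gamma cluster (n = 35), and Spearman's rho was 0.555, 0.707 and 0.727. For the cKO mean, r was 0.614, 0.808 and 0.818. For the difference between cKO and WT, r was −0.108 in the alpha cluster, 0.019 in the beta cluster and 0.511 in the gamma cluster. Over the 529282 windows of the table with at least 2500 known bases, r was 0.284 for the WT mean, 0.393 for the cKO mean and 0.250 for the difference. Windows of a cluster share libraries and neighbouring sequence, so these are descriptions without a test.

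**Figure D4:**
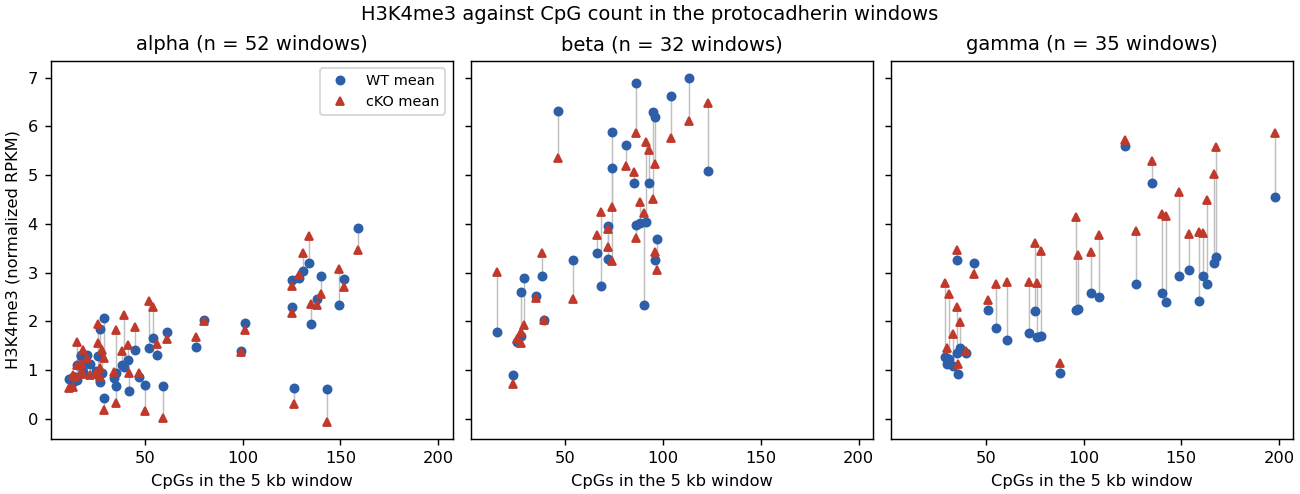
H3K4me3 in normalized RPKM (vertical axis) against the number of CpGs in each 5 kb window, for the alpha, beta and gamma clusters; circles are WT means and triangles cKO means of 3 libraries, and a line joins the values of a window. Beta windows hold the highest values, up to 6.99, at 123 CpGs or fewer, and the triangles stand above the circles in 34 of 35 gamma windows.

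Alpha and gamma windows of like CpG content can be set side by side, without a test. Windows with at least 100 CpGs numbered 14 in the alpha cluster and 15 in the gamma cluster, with medians of 134 and 149 CpGs. Of these, all cKO libraries were above all WT libraries in 0 of 14 alpha windows and in 10 of 15 gamma windows, against 19.9% of the 17495 windows of the table with at least 100 CpGs. They were below them in 0 of 14 and 0 of 15, against 5.69%, and 3 of the 15 gamma windows were called gains, against 2.06%. Of the 14 alpha windows, 2 had a mean input under 1 RPM, and the lowest cKO mean of the 14 was −0.0584. Of the 15 gamma windows, 0 had such low input. The beta cluster reached its high level at a median of 74 CpGs per window, and the median of all windows was 35. Among the gamma windows with under 100 CpGs, all cKO libraries were above all WT libraries in 9 of 20, against 9.88% of all windows whatever their CpG count.

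Input coverage was close between the genotypes. Over the gamma windows it was 2.10 and 2.18 RPM in the cKO inputs and 1.97 and 2.07 in the WT inputs, and over the alpha windows 1.83 and 1.85 against 1.74 and 1.94. Over the beta windows it was 2.11 and 2.25 in the cKO inputs and 1.99 and 1.95 in the WT inputs. With 2 libraries per genotype, no test was made. In the gamma and beta clusters both cKO inputs were above both WT inputs by a small margin, and the part of this in the H3K4me3 differences was not tested.

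Around the clusters, the 5 nearest named protein-coding genes on each side and the 3 genes between the beta and gamma clusters gave 0 called start windows by limma and by edgeR. Of these genes, 2 of 5 on the downstream side, 1 of 5 upstream and 0 of 3 between the clusters had a higher mean in the cKO with an unadjusted limma p under 0.05, against 6.82% of all windows, and 0 a lower one, against 8.12%. The downstream genes, *Diaph1*, *Hdac3*, *Rell2*, *Fchsd1* and *Arap3*, had differences of 0.65 to 1.19, and the upstream genes, *Wdr55*, *Dnd1*, *Hars*, *Hars2* and *Zmat2*, of −0.60 to 1.05, where *Hdac3* and *Rell2* share a window, as do *Hars* and *Hars2*. Summed over the downstream start windows, the cKO libraries had 13.2 to 16.9 normalized RPKM and the WT libraries 9.97 to 11.9. Upstream the sums were 14.5 to 15.2 and 12.8 to 14.4, also without overlap. For the 3 genes between the clusters they overlapped (6.20 to 7.29 and 6.02 to 6.93). The 29 windows between the beta and gamma clusters had a median difference of −0.04, and the 14 windows between the alpha and beta clusters of −0.07. In the first of these stretches the single call was the *Pcdhga1* window above, and in the second 0 of 14 windows were called, with 1 unadjusted limma p under 0.05, in the direction of higher H3K4me3 in the cKO (6.82% of all windows).

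Protocadherin genes outside the clusters did not share a direction. Of 12 start windows, 5 had a higher mean in the cKO (43.7% of all windows), 1 was a called gain (0.563%) and 0 were called losses (0.454%). The gain was at *Pcdh12*, a protocadherin of endothelial cells on the same chromosome, whose start window from 38280001 to 38285000 had a mean of 8.12 normalized RPKM in the cKO and 5.79 in WT (difference 2.34, SE 0.446, limma adjusted p = 0.0446, 0.0466 to 0.174 when a library was left out, edgeR adjusted p = 0.865). All 767 windows with the name of a non-clustered protocadherin had a median difference of −0.18, and all cKO libraries were above all WT libraries in 4.82% of them and below in 9.78%, against 9.88% and 9.95% of all windows. In the 1456 windows of olfactory receptor genes, another family in tandem arrays, the median difference was −0.21 and these shares were 4.19% and 14.8%.

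Of 13 genes for proteins that shape or silence the protocadherin clusters in other cells, among them *Ctcf*, cohesin subunits, *Smchd1*, *Setdb1* and *Dnmt3b*, 1 was called at its start window (1.02% of all windows). This was *Smc3*, which encodes a core subunit of the cohesin ring. Its start window on chromosome 19, from 53600001 to 53605000, had a mean of 3.13 normalized RPKM in the cKO and 6.64 in WT (difference −3.51, SE 0.427, limma adjusted p = 0.015, 0.0179 to 0.0872 when a library was left out, edgeR adjusted p = 0.164). The other 12 differed by −1.10 to 1.37 and 0 of them were called. H3K4me3 at a start window is not a measure of expression, which was not analysed here.

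Sums of H3K4me3 over marker genes of the follicle also did not overlap between the genotypes, and no test of the sums was made. Over the start windows of 8 granulosa cell genes, the summed H3K4me3 was 33.3 to 34.3 normalized RPKM in the cKO libraries and 24.8 to 25.9 in the WT libraries, without overlap. The cKO mean was higher in 8 of 8, against 43.7% of all windows. All cKO libraries were above all WT libraries in 4 of 8, against 9.88% of all windows and 19.9% of those with at least 100 CpGs, where the 8 had a median of 140 CpGs. By limma 1 was called a gain (0.563% of all windows), *Foxl2* (difference 2.85, SE 0.529, limma adjusted p = 0.0415, 0.0281 to 0.149 when a library was left out). In edgeR the adjusted p of *Foxl2* was 0.744, and *Hsd17b1* was called instead (adjusted p = 0.0313). None of the 8 windows was without reads in any library, and *Fshr*, the receptor for follicle stimulating hormone, was lowest, at 0.87 in WT and 1.27 in the cKO. Over 10 oocyte genes the sum was 51.3 to 54.7 in the cKO and 61.1 to 67 in WT, all cKO libraries were below all WT libraries in 8 of 10, against 9.95% of all windows, the exceptions being *Gdf9*, which was higher, and *Figla*, and 0 were called by limma or edgeR, with an unadjusted limma p under 0.05 for 8 that were lower and 1 that was higher (8.12% and 6.82% of all windows). The part of either marker list in the gamma difference was not tested.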

How the data were processed

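Trim Galore 0.4.2 and Bowtie2 2.2.9 (submitters' processing notes) were used by the authors to trim and map reads to GRCm38. Mappings with MAPQ under 20 were removed, so reads in near-identical stretches are lost. The deposited H3K4me3 values are a score, the enrichment-normalized RPKM made by the authors in SeqMonk per 5 kb window and library; the deposited input values are a signal, reads per window scaled to the library (RPM). Windows with high input, and 1 library per genotype with poor enrichment, were left out by the authors. Every value was a whole number of steps above its library's value at 0 reads (100% within 0.1 reads), which gave whole reads: 10856015 to 32775874 for H3K4me3 and 20756128 to 26566505 for input.

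The comparison of cKO with WT used R 4.3.3 and limma 3.58.1 (no intensity trend, no transformation, no block, two-sided, Benjamini-Hochberg over 544879 windows, adjusted p under 0.05). edgeR 4.0.16 (TMM, quasi-likelihood, at least 10 reads per window) was run on the whole reads as an alternative. Both were run on simulated data with planted changes larger than those of the called members, so recovery of differences of this size was not checked. Intervals are 95% intervals of the limma difference. Gene starts and exons came from RefSeq on GRCm38, whose chromosomes end where the table's do. Named windows were all called members, and in each cluster the 3 highest in WT, in the cKO and by difference in each direction. The windows of the first and C-type isoforms and those in which the last exons begin were also named. Of the list genes, those called were named. The members, lists and rules were chosen with earlier results of these data known. Tables and figures were made in Python 3.11.15 with pandas 2.3.3, scipy 1.17.1 and matplotlib 3.10.9. RNA and DNA methylation data were not analysed here.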

Additional observations from a re-analysis of the deposited data

How the results depend on the processing

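The gamma cluster difference (1.01) was 0.94 to 1.10 when each library was left out, 1.23 as a median over windows, 1.32 in windows with a gene start and 0.687 in the others, 0.37 on the log2(value + 1) scale and 0.44 as log2(RPM + 0.5), the last 2 being other scales. The alpha difference (0.067) was −0.010 to 0.17 when a library was left out and 0.22 as log2(RPM + 0.5), and the beta difference (−0.13) was −0.30 to −0.04 when a library was left out and −0.033 as log2(value + 1). The single calls depended on the setting. The 3 gains and 1 loss became 0 and 0 with log2(value + 1), with log2(value + 0.1), with quantile normalization and with edgeR on whole reads, and 0 gains with 1 loss after division by the median. Over all windows both log2 scales called 0, quantile normalization 1 gain and 0 losses, and division by the median 1878 gains and 1372 losses, and edgeR called 5369 gains and 6145 losses among 503726 windows tested. Leaving out each library gave 0 to 7 gains and 0 to 3 losses: 0 and 0 without WT replicate 1, 2 or 4 or without cKO replicate 4 (over all windows 0 gains and 0 or 1 loss), 1 gain and 1 loss without cKO replicate 3 (over all windows 1275 and 486), and 7 gains and 3 losses without cKO replicate 1 (over all windows 9330 and 8649). The cause was not tested. An intensity trend gave 2 gains and 1 loss (1.57% and 2.01% of all windows), and none of the 3 gains called without it (adjusted p 0.0712 to 0.109). Both of these gains were gamma windows, and 1 of them was that of the *Pcdhga6* start (limma adjusted p = 0.031 with the trend, 0.0617 without it). Replicate numbers 1 and 4 are shared by the genotypes, but the deviations of same-numbered libraries correlated at 0.319 and 0.019, so the numbers were not taken to pair them; with the replicate block 11 gains and 1 loss were called (2.51% and 3.63% of all windows). Of 34 named windows, some with no call changed sign: *Pcdha1* (0.26 with the block), *Pcdhac1* (0.0094 with edgeR), *Pcdhb16* (0.0070 with the block), the window of *Pcdhgc4* and *Pcdhgc5* (−0.0453 with edgeR) and the window after it (−0.0297 after division by the median, −0.12 with the block, −0.28 with edgeR). Leaving out a library gave −0.46 to 0.44 for *Pcdha1*, −0.21 to 0.22 for *Pcdhac1*, −1.52 to 0.0285 for *Pcdhb16*, −0.16 to 0.25 for *Pcdhga7*, −0.60 to 0.29 for the window after *Pcdhga12* and −0.27 to 0.62 for that after *Pcdhgc5*. Added after seeing the data, including the windows of *Pcdhga1* and *Pcdhga2* or leaving out those with a mean input under 1 moved each cluster difference by less than the pooled SD of its libraries. Depth limits single windows, with a median of 11 reads per window in cKO replicate 1, the lowest, and 47 in cKO replicate 4, the highest.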
